A study of Mus musculus with 12 samples.

Results

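Gonadal somatic cell markers, 10 genes taken by symbol, were followed in RNA of mouse primordial germ cells (PGCs), which give rise to oocytes and sperm. The genes are Wt1, Gata4 and Nr5a1 of the undifferentiated gonad, Sox9 and Amh of the testis, and Foxl2, Wnt4, Rspo1, Fst and Irx3 of the ovary. All 10 have a row among the 22552 rows of each stage table, and 8 have one among the 16394 rows of the Tet1-KO table, where Amh and Sox9 were not analysed here. All 16394 rows of that table have a completed test, unlike those of the stage tables. The comparisons ask at what level genes of the cells that surround PGCs in the gonad were measured in PGC libraries, and whether that level moved with stage, sex or genotype.

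The series has 12 libraries, all from C57BL/6 embryos. Wild-type PGCs came from embryonic day 9.5 (E9.5, 2 libraries), E11.5 (2 libraries) and E13.5, where 3 libraries are titled as E13.5m and 3 further libraries are titled WT with no sex given. PGCs of genotype Tet1 -/- (Tet1-KO, 2 libraries), which lack an enzyme that oxidises 5-methylcytosine in DNA, also came from E13.5. A further group, E13.5f, appears in the deposited stage tables, although no library carries it in its title. Across 10996 genes at 1 FPKM or more in both, this column and that of WT correlated with r 0.999 (Pearson, log2 scale) at a median ratio of 1.04, so the 2 comparisons made from them cannot be treated as independent. Each stage library (E9.5, E11.5, E13.5m) was made from 400 to 5000 cells and each WT or Tet1-KO library from 500 to 2000, and how the PGCs were isolated is not given in the sources used here. If E13.5f holds the WT libraries, sex and library set cannot be told apart. The Y-linked gene Eif2s3y stood at 0.178 FPKM in E13.5f, 0.137 FPKM in WT and 0.0296 FPKM in Tet1-KO. It stood at 264 FPKM in E13.5m, 46.5 FPKM at E11.5 and 106 FPKM at E9.5. As for WT, titles of the E9.5, E11.5 and Tet1-KO libraries give no sex. In a ratio of E13.5m or E13.5f to E11.5, sex and stage therefore cannot be told apart.

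Levels are in FPKM, read fragments per length of transcript and per size of library, and each group has 1 value, pooled by the authors over its libraries. No spread between libraries can therefore be given for a level, the values show no whole-read steps from which the depth could be read, and errors of log2 ratios are standard errors (SE) implied by the deposited Cuffdiff tests. The labels do not tie the libraries to separate embryos, so p-values measure only the spread between libraries, which may be technical. E11.5 is held in 3 tables at slightly different scales, and stage levels are given on that of the E13.5f table, with factors of 0.870 for the E9.5 and 0.976 for the E13.5m values. A gene was called where the authors' q-value was under 0.05 in a completed test.

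The gonad forms as a thickening of the coelomic epithelium that germ cells colonise. Wt1, Gata4 and Nr5a1 encode transcription factors needed to build this bipotential gonad. In the XY gonad the supporting cells become Sertoli cells, in which SOX9 and NR5A1 activate Amh, the anti-Müllerian hormone gene. In the XX gonad they become pre-granulosa cells, which use the WNT4 and RSPO1 signals, the transcription factor FOXL2 and follistatin, the activin antagonist encoded by Fst. Irx3 encodes a homeobox factor of the ovarian somatic cells. None of the 10 is known as a defining gene of germ cells, although Rspo1 and Irx3 are widely expressed in the embryo.

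The markers were low in every group. Summed over the 10 genes they reached 3.50 FPKM at E9.5, 4.03 FPKM at E11.5, 13.3 FPKM at E13.5f and 16.7 FPKM at E13.5m. A fixed list of 8 germ cell markers, among them Ddx4, Dazl, Pou5f1 and Dppa3, summed to 2050 FPKM at E9.5, 2689 FPKM at E11.5, 3722 FPKM at E13.5f and 5157 FPKM at E13.5m. The sum of the 10 genes was thus 0.171% of the germ cell sum at E9.5, 0.150% at E11.5, 0.359% at E13.5f and 0.323% at E13.5m. Which cells this RNA came from was not tested. In bulk RNA, fewer cells of a type and less RNA per cell cannot be told apart. The higher sums after E11.5 came mostly from 3 genes: Irx3 and Rspo1 at E13.5f, and Rspo1 and Amh at E13.5m.

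**Figure D1:**
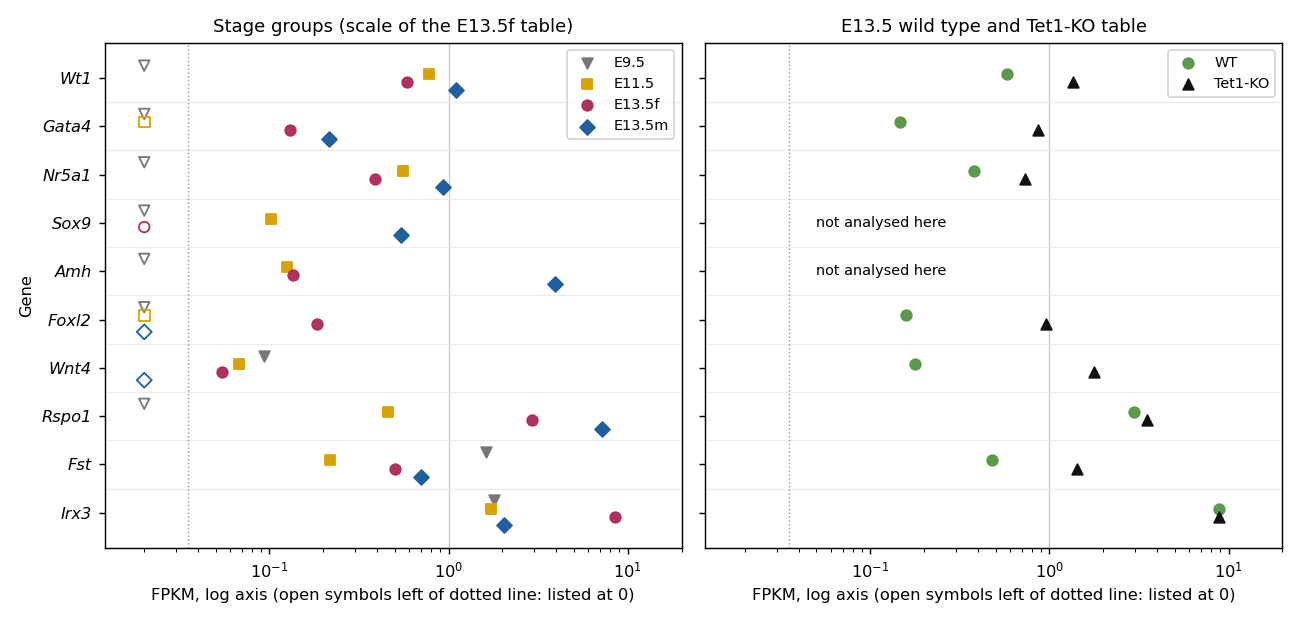
FPKM (log axis) of the 10 genes in the 4 stage groups (left) and in WT and Tet1-KO at E13.5 (right), 1 pooled value per group with no error bar, open symbols marking values listed at 0. Most points lie under 1 FPKM, and the highest of the stage groups are Irx3 at 8.46 FPKM in E13.5f, Rspo1 at 7.21 FPKM and Amh at 3.92 FPKM in E13.5m.

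Listed at 0 were 7 of the 10 markers at E9.5, 2 at E11.5, 1 at E13.5f and 2 at E13.5m. At 1 FPKM or more stood 2 genes at E9.5 (Irx3 and Fst), 1 at E11.5 (Irx3), 2 at E13.5f (Irx3 and Rspo1) and 4 at E13.5m (Rspo1, Amh, Irx3 and Wt1). Among rows above 0 FPKM, Irx3 at E13.5f was at percentile 57.9 and Rspo1 at E13.5m at percentile 57.4, which were the highest positions any of the 10 reached in the stage groups. At E13.5f the other members above 0, apart from Rspo1 at percentile 43.2, lay between percentiles 5.96 and 25.1.

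**Figure D2:**
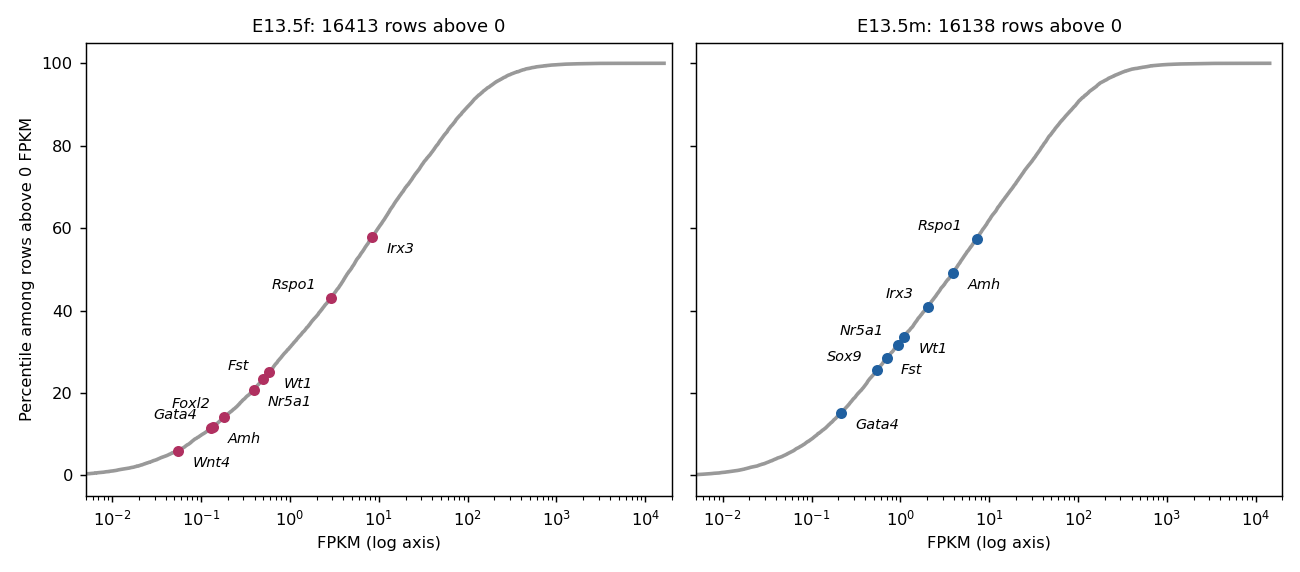
Percentile (vertical axis) against FPKM (horizontal log axis) for all rows above 0 FPKM in E13.5f (16413 rows) and E13.5m (16138 rows), with the members above 0 marked on the curve. Irx3 leads in E13.5f at percentile 57.9, and Rspo1 (57.4) and Amh (49.2) lead in E13.5m.

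None of the 3 genes of the bipotential gonad was called between any groups. Wt1, a zinc finger factor of the coelomic epithelium and of supporting cells (chromosome 2, 104966685 to 105013771, build mm9), was listed at 0 at E9.5 and stood at 0.778 FPKM at E11.5, 0.584 FPKM at E13.5f and 1.10 FPKM at E13.5m. Nr5a1, the nuclear receptor gene of the gonad and adrenal (chromosome 2, 38548179 to 38570062), was listed at 0 at E9.5 and stood at 0.559 FPKM at E11.5, 0.389 FPKM at E13.5f and 0.937 FPKM at E13.5m. Gata4, a zinc finger factor of the gonadal soma and heart (chromosome 14, 63817751 to 63864097), was listed at 0 at E9.5 and E11.5 and stood at 0.130 FPKM at E13.5f and 0.214 FPKM at E13.5m. Among the stage groups all 3 were highest at E13.5m. Wt1 and Nr5a1 had the same order, E13.5m, E11.5, E13.5f and then E9.5. Their neighbouring levels from E11.5 on did not differ beyond the SE: for Wt1 the log2 ratio to E11.5 was -0.41 ± 0.95 (SE) at E13.5f and 0.49 ± 0.97 (SE) at E13.5m, and for Nr5a1 it was -0.52 ± 1.12 (SE) and 0.74 ± 1.12 (SE). Gata4 had no completed test in the stage tables. The deposited loci of AI314831 and Wt1 lie 18 bases apart.

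Between E11.5, with no sex in its titles, and E13.5m, labelled male, 2 of 7 tested members rose and 0 fell, in the authors' deposited table. The calls were Amh and Rspo1. Of all 12311 tested genes 4.88% were called, 2.94% higher and 1.94% lower. Over all 10 members the median change in log2(FPKM + 1) was 0.30, beside 0 over all rows, a scale that understates changes of low genes. The values of 8 members were higher at E13.5m than at E11.5, that of Wnt4 was lower and that of Foxl2 was listed at 0 in both.

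Amh, the hormone gene by which Sertoli cells make the Müllerian ducts regress (chromosome 10, 80267992 to 80270393), was listed at 0 at E9.5 and stood at 0.126 FPKM at E11.5, 0.136 FPKM at E13.5f and 3.92 FPKM at E13.5m. Its value was highest in E13.5m, at percentile 49.2 among rows above 0 FPKM, and near the bottom of the range elsewhere. The rise from E11.5 to E13.5m was 31.1-fold, a log2 ratio of 4.96 ± 1.35 (SE), with a Cuffdiff q-value of 0.00995 in the authors' deposited table. On the log2(FPKM + 1) scale the change was 2.15. Sf3a2, a splicing factor gene whose deposited locus ends 325 bases from that of Amh, was abundant, at 224 FPKM at E11.5 and 257 FPKM at E13.5m as deposited, and was not called (q-value 0.876 in the authors' deposited table).

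Sox9, the transcription factor gene that sets the Sertoli cell fate (chromosome 11, 112643523 to 112649071), was listed at 0 at E9.5 and at E13.5f and stood at 0.102 FPKM at E11.5 and 0.544 FPKM at E13.5m. Its log2 ratio from E11.5 to E13.5m was 2.42 ± 1.36 (SE), and it was not called (q-value 0.352 by Cuffdiff in the authors' deposited table). Both testis markers were thus highest in E13.5m, where they summed to 4.46 FPKM against 0.228 FPKM at E11.5 and 0.136 FPKM at E13.5f, and 1 of the 2 passed the test.

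Of 15 other genes of Sertoli cells, 10 were tested between E11.5 and E13.5m and none was called by Cuffdiff. The gene whose levels over the 4 stage groups lay nearest to those of Amh, by Euclidean distance of log2(FPKM + 1) among 22470 single-symbol genes, was on this list: Cst9, at 0.142 FPKM in E13.5f and 3.88 FPKM in E13.5m and listed at 0 before, at a distance of 0.172. Next came Gm15698 (distance 0.196) and Svopl (distance 0.210). The listed genes were not alike. Mro was listed at 0 up to E11.5 and had 0.130 FPKM at E13.5f and 1.01 FPKM at E13.5m, Vnn1 stood at 3.33 FPKM at E9.5 and 1.88 FPKM in E13.5m, while Sry and Sox10 were listed at 0 in all stage groups and Aard was at 7.36 FPKM in E13.5m against 21.1 FPKM at E11.5. With Aard included the list summed to 13.2 FPKM at E9.5, 24.9 FPKM at E11.5, 28.9 FPKM at E13.5f and 21.0 FPKM at E13.5m. Aard alone held 9.72 FPKM of this at E9.5, 21.1 FPKM at E11.5, 18.9 FPKM at E13.5f and 7.36 FPKM at E13.5m. The highest sum was therefore in E13.5f with Aard and in E13.5m without it.

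Markers of steroid-producing and interstitial cells had their highest sum in E13.5m. Summed over 12 genes they reached 21.4 FPKM in E13.5m, against 1.09 FPKM at E9.5, 3.49 FPKM at E11.5 and 2.14 FPKM at E13.5f. Most of this came from 3 genes of steroid synthesis: Cyp17a1 at 9.76 FPKM, Cyp11a1 at 5.57 FPKM and Hsd3b1 at 3.58 FPKM. Among 7 tested genes none was called by Cuffdiff. The Leydig cell gene Insl3 was listed at 0 in E13.5m, in a row whose test is marked as failed. Their part in the Amh result was not tested. Of the Y chromosome, Eif2s3y was measured at 264 FPKM for E13.5m against 0.178 FPKM for E13.5f.

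**Figure D3:**
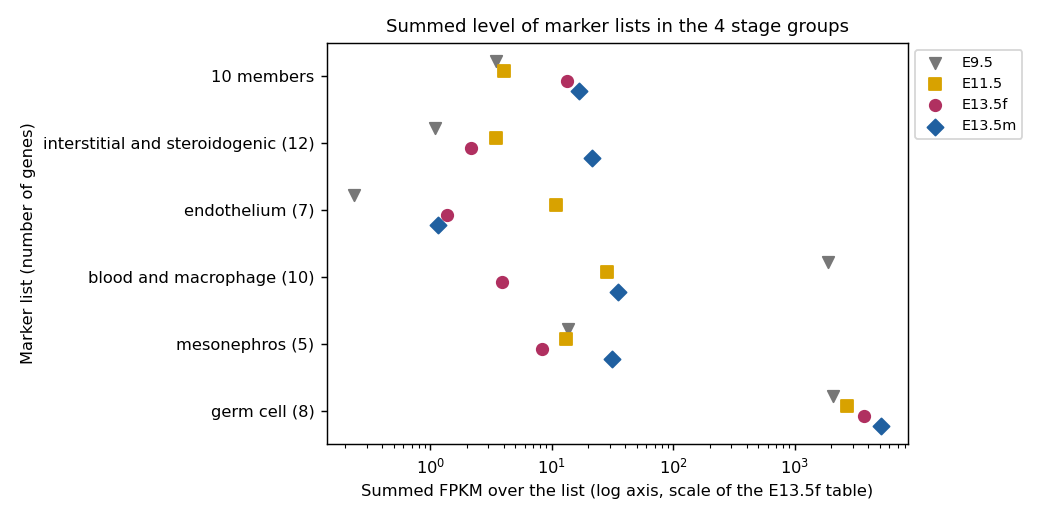
Summed FPKM (log axis, scale of the E13.5f table) of the 10 members and of 5 marker lists in the 4 stage groups, 1 pooled value per group with no error bar. The members stay between 3.50 and 16.7 FPKM while the germ cell list lies between 2050 and 5157 FPKM, and the interstitial list reaches 21.4 FPKM in E13.5m.

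Rspo1, which encodes a secreted enhancer of Wnt signalling that supports ovarian fate (chromosome 4, 124663673 to 124686343), was highest in the group labelled male. It was listed at 0 at E9.5 and stood at 0.460 FPKM at E11.5, 2.91 FPKM at E13.5f and 7.21 FPKM at E13.5m. Both E13.5 groups were above E11.5, and the higher of them was the one labelled male. The rise to E13.5m was 15.7-fold, a log2 ratio of 3.97 ± 0.97 (SE), with a Cuffdiff q-value of 0.00279 in the authors' deposited table. The change to E13.5f was a log2 ratio of 2.66 ± 1.02 (SE) and was not called (q-value 0.0645 by Cuffdiff in the authors' deposited table). The genes with the nearest levels over all 6 group columns were Gpr83 (distance 0.562), 4930506M07Rik (distance 0.948) and Zfp467 (distance 0.972), among 16218 genes.

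Between E11.5 and E13.5f, 1 of 5 tested members rose and 0 fell, in the authors' deposited table, where 12% of 12448 tested genes were called, 9.34% higher and 2.68% lower. The call was Irx3 (chromosome 8, 94322423 to 94325273), an Iroquois homeobox gene. Irx3 stood at 1.78 FPKM at E9.5, 1.72 FPKM at E11.5, 8.46 FPKM at E13.5f and 2.04 FPKM at E13.5m. It was highest in E13.5f, and the other 3 groups lay close together. The rise was 4.91-fold, a log2 ratio of 2.30 ± 0.71 (SE), with a Cuffdiff q-value of 0.0169 in the authors' deposited table. It was lost at a q-value threshold of 0.01. At E13.5m the log2 ratio to E11.5 was 0.24 ± 0.90 (SE) and was not called.

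None of the other ovarian markers was called at E13.5f. Foxl2, a forkhead gene of granulosa cells (chromosome 9, 98856025 to 98858545), was listed at 0 at E9.5, E11.5 and E13.5m and stood at 0.183 FPKM at E13.5f. Wnt4, the ligand gene of ovarian fate (chromosome 4, 136833549 to 136855416), stood at 0.0933 FPKM at E9.5, 0.0676 FPKM at E11.5 and 0.0546 FPKM at E13.5f and was listed at 0 at E13.5m. Neither had a completed test in a stage table. Fst (chromosome 13, 115242469 to 115248938) stood at 1.62 FPKM at E9.5, 0.217 FPKM at E11.5, 0.499 FPKM at E13.5f and 0.700 FPKM at E13.5m, lowest at E11.5. From E11.5 it was 2.30-fold higher in value at E13.5f and 3.23-fold at E13.5m, with Cuffdiff q-values of 0.630 and 0.624 in the authors' deposited table, so neither was called. Foxl2os lies 296 bases from Foxl2 in the deposited loci, and whether reads were counted by strand is not given in the sources used here. The 5 ovarian markers summed to 12.1 FPKM at E13.5f, of which Irx3 and Rspo1 made up nearly all, and to 9.95 FPKM at E13.5m. Over all 10 members the median change in log2(FPKM + 1) from E11.5 to E13.5f was 0.09, beside 0 over all rows.

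Of 7 other genes linked to pre-granulosa cells or to Wnt response, 1 of 4 tested rose between E11.5 and E13.5f. This was Irx5, another Iroquois homeobox gene, which was listed at 0 at E11.5 and stood at 2.26 FPKM at E13.5f (q-value 0.0272 by Cuffdiff in the authors' deposited table). Lef1, a transcription factor of Wnt signalling, made up most of this list in the stage groups, at 57.3 FPKM at E11.5 and 32.5 FPKM at E13.5f, and was not called. The genes nearest to Irx3 in their levels over all 6 group columns were Hbegf (distance 0.361), Trnp1 (distance 0.648) and Srxn1 (distance 0.733). None of the 10 members was among them.

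**Figure D4:**
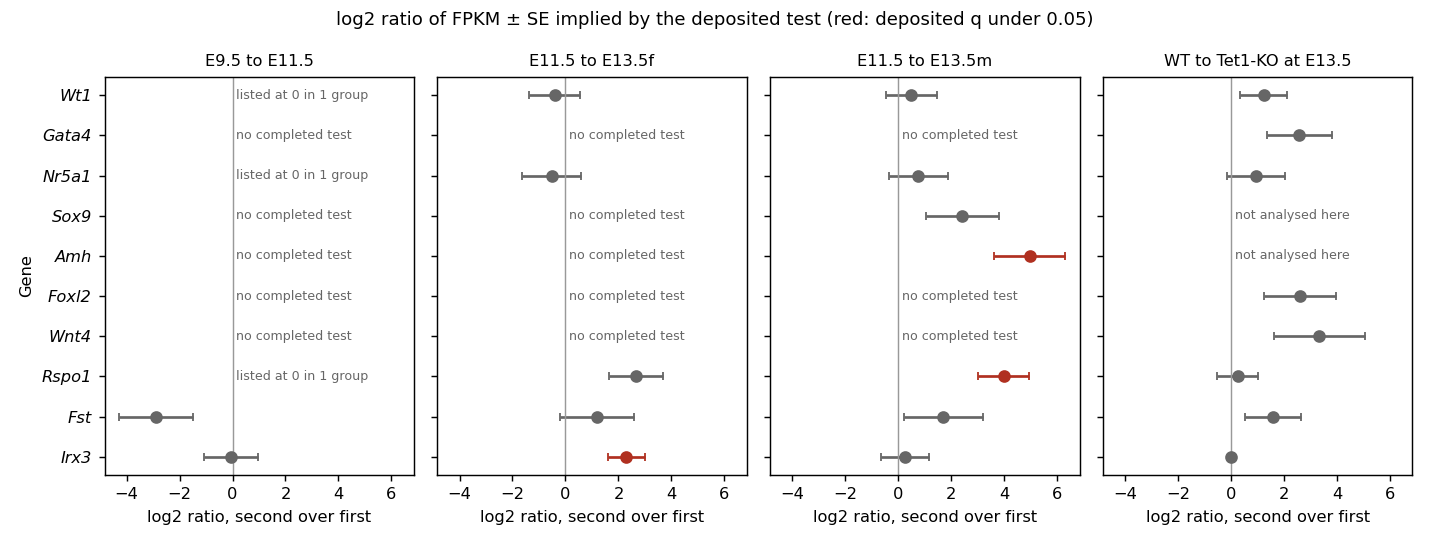
log2 ratio of FPKM (horizontal axis, second group over first) of each gene in the 4 comparisons, with the SE implied by the deposited test as the bar and deposited calls in red. Calls are Irx3 from E11.5 to E13.5f (2.30) and Amh (4.96) and Rspo1 (3.97) from E11.5 to E13.5m, and Irx3 in Tet1-KO has no SE.

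No deposited table compares E13.5m with E13.5f, so the difference of their log2 ratios to E11.5 was tested across 12956 genes, of which 0.139% passed after Benjamini-Hochberg adjustment, 0.108% with the higher value in E13.5m and 0.0309% with the lower. Of 6 members with an SE in both tables, 0 passed, and 1 (Amh) had an unadjusted p under 0.05. Amh had no completed test from E11.5 to E13.5f, at 0.126 and 0.136 FPKM, so its SE there comes from an uncompleted test. Among the 5 members with a completed test in both, which leave out Amh, 0 passed. The difference, E13.5m minus E13.5f, was 4.85 ± 2.27 (SE) for Amh, with a 95% interval from 0.40 to 9.31, and -2.05 ± 1.14 (SE) for Irx3, with an interval from -4.30 to 0.19. For Rspo1 it was 1.31 ± 1.41 (SE), with an interval from -1.45 to 4.06. The calls of Amh, Rspo1 and Irx3 in 1 group and not in the other are therefore not shown to be differences between E13.5m and E13.5f. Both ratios use the same E11.5 libraries and this error was counted in each, which widens the intervals.

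Between E9.5 and E11.5, when PGCs leave the hindgut and enter the forming gonad, 0 of 5 tested members were called by Cuffdiff, with 5.63% of 12904 tested genes called, 3.71% higher and 1.92% lower. At an unadjusted p under 0.05 there were 4 of 5, and 19.8% of all tested genes. Wt1, Nr5a1 and Rspo1 were listed at 0 at E9.5 and had values at E11.5, with q-values of 0.136, 0.195 and 0.230 in the authors' deposited table by Cuffdiff. Fst went the other way, with a log2 ratio of -2.90 ± 1.40 (SE) and a q-value of 0.219 in the authors' deposited table by Cuffdiff. Irx3 had a log2 ratio of -0.05 ± 1.01 (SE).

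Markers of blood moved far more over the same interval. Summed over 10 blood and macrophage genes, led at E9.5 by the embryonic globin Hbb-y and at E13.5m by the adult globin Hba-a1, the level was 1887 FPKM at E9.5, 28.2 FPKM at E11.5, 3.86 FPKM at E13.5f and 35.3 FPKM at E13.5m, with 5 of 8 tested genes falling between E9.5 and E11.5. Endothelial markers summed over 7 genes to 0.233 FPKM at E9.5, 10.9 FPKM at E11.5, 1.37 FPKM at E13.5f and 1.16 FPKM at E13.5m, with Esam the highest of them in each stage group and Tie1 and Emcn listed at 0 throughout the stage groups. Of 2 endothelial genes tested, 2 rose from E9.5 to E11.5, 2 fell from E11.5 to E13.5f and 1 fell from E11.5 to E13.5m. The blood sum was highest at E9.5 and the endothelial sum at E11.5. From E11.5 on, the blood sum was highest in E13.5m, where Amh and Rspo1 were highest, and lowest in E13.5f, where Irx3 was highest. Most of the E13.5m sum came from Hba-a1 at 18.6 FPKM and Hbb-y at 14.5 FPKM. From E11.5 to E13.5m 3 of the 10 values were higher and 6 lower, with a median change in log2(FPKM + 1) of -0.37. The part of both lists in the member levels was not tested.

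The last comparison sets Tet1-KO against WT at E13.5. Tet1 itself stood at 6.36 FPKM in WT and 0.218 FPKM in Tet1-KO, with an FDR of 1.55e-10 by Cuffdiff in the authors' deposited table. Of 8 members tested 0 were called by Cuffdiff, where 6.16% of 16394 tested genes were called, 0.677% higher and 5.48% lower. At an unadjusted p under 0.05 there was 1 of 8 (Gata4), and 21.4% of all tested genes. Of the 8 members' values 7 were above WT, as were 26.3% of all rows, and the median change in log2(FPKM + 1) was 0.64 for the members and -0.21 over all rows. The medians of other Sertoli and pre-granulosa genes were below 0. Of the other Sertoli genes 3 of 8 values were higher in Tet1-KO, with a median change of -0.24, and of the other pre-granulosa genes 2 of 7, with a median change of -0.21. Of 9 other early gonad and coelomic epithelium genes, 5 values were higher and 3 lower, with a median change of 0.03. The part of the restriction to completed tests in these counts was not tested: Gata4, Foxl2 and Wnt4, without a completed test in the stage tables, have one here.

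Wnt4 was at 0.177 FPKM in WT and at 1.77 FPKM in Tet1-KO (log2 ratio 3.32 ± 1.71, SE), and the authors' deposited table lists 0.238 as its Cuffdiff FDR. Foxl2 stood at 0.159 and 0.954 FPKM (log2 ratio 2.59 ± 1.37, SE) and Gata4 at 0.146 and 0.861 FPKM (log2 ratio 2.56 ± 1.24, SE), with FDR values of 0.253 and 0.202 in the authors' deposited table by Cuffdiff. These 3 genes had the widest gaps between the groups and also large errors. Fst stood at 0.479 and 1.42 FPKM, Wt1 at 0.581 and 1.36 FPKM, Nr5a1 at 0.381 and 0.730 FPKM and Rspo1 at 2.98 and 3.51 FPKM, with log2 ratios between 0.24 and 1.57. Irx3 was nearly level, at 8.81 FPKM in WT and 8.79 FPKM in Tet1-KO, and its log2 ratio became 0.42 when FPKM were divided by the column totals.

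The scale of the 2 knockout columns differs. Rows at 1 FPKM or more in both had a median log2 ratio of -0.38 in this table, beside 0.32 from E9.5 to E11.5, 0.19 from E11.5 to E13.5f and 0.02 from E11.5 to E13.5m. Tested relative to these medians, Irx3 at E13.5f and Amh and Rspo1 at E13.5m were still called, and 0 of the 7 members with an SE were called in Tet1-KO. The members summed to 13.7 FPKM in WT and 19.4 FPKM in Tet1-KO, and the germ cell list to 3897 and 2643 FPKM. Their ratio was 0.352% in WT and 0.734% in Tet1-KO, and this change in ratio has no test. Of the 8 germ cell genes 1 fell, Dazl, which encodes an RNA-binding protein. Of the other lists, 0 of 8 other Sertoli genes and 0 of 7 other pre-granulosa genes were called by Cuffdiff.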

How the data were processed

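Total RNA of few cells was amplified as cDNA before sequencing, per the labels' protocols, which makes low values noisy. Bowtie, TopHat 1.3.1 and build mm9 are named in the submitters' processing notes, as are Cufflinks with Cuffdiff 1.2.1 for stage libraries and 1.0.3 for WT and Tet1-KO. The authors deposited 4 tables with FPKM pooled per group, p-values with q-values and, in the stage tables, a test statistic (a score), per the file headers. FDR values deposited for Tet1-KO as a score exceed 1 in 2182 rows.

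The members and lists were chosen with earlier results of these data known. Named genes were the 10 members, up to 3 called genes of each other list and the 3 genes nearest to each called member. Other genes of these lists and neighbouring genes were named after their values were seen. The log2 ratio was computed from the 2 FPKM values, and its SE from the deposited statistic or, for Tet1-KO, the normal deviate of the p-value where above 0.05. No ratio was given with a value listed at 0. The test of E13.5m against E13.5f and the tests relative to the median were tested on simulated data. The simulated ratios had independent normal errors of the size of the implied SE. They therefore could not check those SEs, nor the error shared through the E11.5 libraries. Alternatives were a q-value threshold of 0.01, Benjamini-Hochberg adjustment of the deposited p-values, centring, column totals, 1 row per symbol, a floor of 1 FPKM and pseudocounts of 1 and 0.1. Scripts ran in Python 3.11.15 with scipy 1.17.1, pandas 2.3.3, matplotlib 3.10.9 and numpy 2.4.6. Counts of calls over the list of early gonad genes in the stage tables are not reported here.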

Additional observations from a re-analysis of the deposited data

How the results depend on the processing

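From E11.5 to E13.5m 2 members were called under each alternative run for calls, and 0 members were called from E9.5 to E11.5 and in Tet1-KO under each of them. At a q-value threshold of 0.01 the members called from E11.5 to E13.5f went from 1 to 0, and the genes called in all went from 727 to 348 (E9.5 to E11.5), from 1496 to 699 (E11.5 to E13.5f), from 601 to 296 (E11.5 to E13.5m) and from 1010 to 371 (Tet1-KO), since the threshold is stricter. Centring on the median took the Tet1-KO calls from 1010 to 481, with 264 higher and 217 lower in place of 111 and 899. The split of higher and lower calls moved with centring from 479 and 248 to 227 and 339 (E9.5 to E11.5) and from 1163 and 333 to 803 and 482 (E11.5 to E13.5f). For the difference between E13.5m and E13.5f, 0 members passed under the 3 alternatives, 1 of which (completed tests in both tables) was chosen after seeing the data. Leaving out a replicate was not run, because each column pools the libraries of its group. No paired analysis was possible because each table holds 1 pooled value per group. The depth is unknown, so levels near 0.1 FPKM have no counting interval.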

Other observations

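Some early gonad and coelomic epithelium genes other than the 10 members rose, among them Lhx2 and Emx2 from E11.5 to E13.5f and Krt19 from E11.5 to E13.5m. Lhx2, a LIM homeobox gene, stood at 1.24 FPKM at E11.5, 10.9 FPKM at E13.5f and 1.51 FPKM at E13.5m, and rose to E13.5f with a log2 ratio of 3.14 ± 0.72 (SE). It stood at 11.4 FPKM in WT and 1.74 FPKM in Tet1-KO, with a log2 ratio of -2.71 ± 0.68 (SE), and was the 1 call among 9 tested genes of this list there. Emx2, a homeobox gene of the urogenital ridge, stood at 0.0376 FPKM at E11.5 and 0.888 FPKM at E13.5f, and Krt19, a keratin gene of simple epithelium, at 0.196 FPKM at E11.5 and 3.98 FPKM at E13.5m.

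Single genes of other lists were called as well. In the mesonephros list Lhx1, a LIM homeobox gene of the nephric duct, stood at 0.159 FPKM at E9.5, 7.75 FPKM at E11.5, 6.29 FPKM at E13.5f and 30.1 FPKM at E13.5m, and rose from E9.5 to E11.5 and from E11.5 to E13.5m, the latter by a log2 ratio with an SE of 0.49 and a q-value of 0.00417 by Cuffdiff in the authors' deposited table. Pax8 of the same list fell from 5.38 FPKM at E11.5 to 1.37 FPKM at E13.5f and 0.639 FPKM at E13.5m. Col9a3, a collagen gene of the Sertoli list, was the 1 call among 7 tested genes of that list from E11.5 to E13.5f, at 0.0161 and 2.14 FPKM. Pdgfra of the interstitial list was the 1 call among 10 tested in Tet1-KO, at 0.200 FPKM in WT and 0.00478 FPKM in Tet1-KO. Of the 8 germ cell genes, 2 rose from E9.5 to E11.5, 1 rose from E11.5 to E13.5f, and 1 rose and 1 fell from E11.5 to E13.5m. Of 5 sex-linked genes, 1 of 4 tested fell from E9.5 to E11.5, 3 of 4 fell from E11.5 to E13.5f and 2 of 4 rose from E11.5 to E13.5m. In blood genes 1 of 7 tested fell from E11.5 to E13.5f and 0 of 7 were called from E11.5 to E13.5m by Cuffdiff.

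RefSeq promoter windows (GRCm38.p6) matched 4 members: Foxl2, Irx3, Rspo1 and Wnt4. In the 250 bases before the start, searched on both strands, none of the 4 held AGGTCA (a nuclear receptor site), a GATA factor site (AGATAA or AGATAG, and also TGATAA or TGATAG) or ACAAT (the SOX core). Among 32851 windows of that length 14.0% held the first, 26.5% one of the GATA sites and 27.7% the last. The share of G and C bases was 56% for Irx3, 66.8% for Rspo1, 70.8% for Foxl2 and 85.2% for Wnt4. Its median over all windows was 52.4%, and the part of base content in the absence of these sites was not tested.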
